A study of Homo sapiens with 6 samples.

Results

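Hypoxia-inducible genes were followed in HCT-shSLBP cells, a derivative of the human colorectal carcinoma line HCT116 named for a short hairpin RNA against SLBP, grown with and without doxycycline. The set was named gene by gene as targets of the hypoxia-inducible factors and genes shared with other stress responses, and holds NDRG1, MXI1, VEGFA, CA9, ADM, ANKRD37, EGLN3, BNIP3, BNIP3L and HIF1A. Of these 10 genes, 9 were measured among the 22411 genes tested, each by a single probe set that carries no other gene's symbol, and CA9 is not analysed here. The untreated group held 3 cultures of HCT-shSLBP and the treated group held 3 cultures of the same line given doxycycline at 2 µg/ml, with total RNA from each culture on its own Affymetrix array. Cells of both groups carry the hairpin, and no treated culture without it is part of the comparison, so effects of the drug and of the hairpin cannot be told apart. The time of exposure, and whether the line is a single clone, are not given in the sources used here.

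Cells sense oxygen through prolyl hydroxylases of the EGLN family, which mark the alpha subunits of the hypoxia-inducible factors (HIF) for binding by VHL and destruction. When oxygen is short, the alpha subunits escape, pair with ARNT and bind short DNA elements with the core ACGTG or GCGTG near genes of glucose use, blood vessel growth, acid export and mitochondrial turnover. The amount of HIF1A protein is set largely after transcription, so its mRNA is not a measure of HIF activity. Several HIF targets, among them NDRG1, VEGFA and DDIT4, are also induced by other stresses.

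The depositors' values are log2 signals, and every change below is the mean of the treated arrays minus the mean of the untreated arrays on that log2 scale. Levels of different genes are not compared, because each probe set has its own response, apart from a rough yardstick for background and sums of marker signals. A gene "rose" or "fell" where limma's adjusted p (Benjamini-Hochberg, all 22411 genes) was under 0.05. SLBP, the target of the hairpin, was lower on every treated array, at 8.09, 8.04 and 8.08 untreated and 7.38, 7.19 and 7.32 treated (log2 change -0.77, SE 0.055, limma adjusted p = 0.00322). All 9 measured members had a mean above 4.52, the log2 signal under which 95% of 359 olfactory receptor genes lay, a yardstick for background. Of all 22411 genes 14761 lay above that level, as did 9 of 10 colon epithelial markers, 4 of 6 fibroblast markers and 2 of 8 blood and endothelial markers. None of these marker genes passed limma's test. At an unadjusted p under 0.05, which 22.6% of all genes tested reached, the numbers were 1, 1 and 0. The summed linear signal of the epithelial markers was 6541 to 7189 untreated and 6505 to 6902 treated. It was 171 to 180 against 181 to 186 for fibroblast markers and 97.8 to 100.2 against 94.8 to 101.4 for blood and endothelial markers. Any part of the fibroblast markers in the results was not tested.

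The hypoxia-inducible genes did not move as a block. NDRG1 and MXI1 rose to 1.35 and 1.24 times their untreated signal, and BNIP3 fell to 86.6% of it. The other 6 genes did not pass the test, among them HIF1A itself, VEGFA and ANKRD37, whose changes were all within 0.03 of 0. The test was passed by 3 of 9 members, beside 6.19% of all genes. Thus 2 of 9 members were called higher, where 2.93% of all genes tested were, and 1 of 9 was called lower, where 3.27% of all genes were. All these shares, and those beside the lists below, include dim genes. With genes below the median level of 5.58 left out, 2569 of 11206 genes passed (1156 higher, 1413 lower). Of the members, 3 were then higher and 1 lower, with ANKRD37 and EGLN3 (mean signals 5.48 and 5.12) among the genes left out. Members and lists were chosen with earlier results of these data known, so such counts do not test them as a set. The median change of the members was 0.027, against -0.019 over all genes. The treated and untreated arrays did not overlap for 4 of the 9 members, beside 29.2% of all genes. Of the 9, 3 were higher and 1 lower in this way, beside 12.5% and 16.7% of all genes.

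The 5′ flanks of 3 members that hold the core of the HIF element are shown, picked as a gene that rose, a gene that fell and a gene with no call. Each run gives the 250 bases before a RefSeq start on build GRCh38.p14, in the direction of transcription, with every ACGTG or GCGTG on either strand in capitals (read on the opposite strand as CACGT or CACGC). MXI1 has 3 RefSeq starts, of which the 2 with a match are shown (chr10:110209981-110210230 and chr10:110225746-110225995, plus strand). BNIP3 lies on the minus strand of the same chromosome (chr10:131981924-131982173) and ANKRD37 on the plus strand of chromosome 4 (chr4:185396591-185396840).
MXI1, RefSeq start 2: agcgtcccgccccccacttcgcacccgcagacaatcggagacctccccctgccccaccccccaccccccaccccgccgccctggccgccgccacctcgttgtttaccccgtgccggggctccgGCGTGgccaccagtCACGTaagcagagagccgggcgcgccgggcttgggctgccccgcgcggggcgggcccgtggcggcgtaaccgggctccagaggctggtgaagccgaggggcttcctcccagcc
MXI1, RefSeq start 3: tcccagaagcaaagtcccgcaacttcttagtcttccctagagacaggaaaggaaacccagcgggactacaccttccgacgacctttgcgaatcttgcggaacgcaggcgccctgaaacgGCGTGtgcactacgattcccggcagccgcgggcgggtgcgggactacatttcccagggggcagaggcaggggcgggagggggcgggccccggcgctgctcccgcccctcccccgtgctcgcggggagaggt
BNIP3: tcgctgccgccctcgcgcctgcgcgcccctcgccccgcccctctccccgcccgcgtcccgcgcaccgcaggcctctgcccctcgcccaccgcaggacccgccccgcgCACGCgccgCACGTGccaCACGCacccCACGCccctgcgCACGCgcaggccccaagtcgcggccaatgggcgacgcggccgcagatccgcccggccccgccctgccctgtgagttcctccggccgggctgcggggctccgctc
ANKRD37: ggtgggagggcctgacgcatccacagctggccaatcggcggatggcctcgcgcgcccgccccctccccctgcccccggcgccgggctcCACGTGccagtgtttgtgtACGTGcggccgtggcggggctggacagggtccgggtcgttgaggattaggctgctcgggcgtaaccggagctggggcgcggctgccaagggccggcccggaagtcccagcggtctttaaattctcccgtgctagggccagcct

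The BNIP3 flank was the densest, with 6 matches between 143 and 104 bases before the start, 2 of which overlap in a CACGTG that reads the same on both strands. Of 34788 distinct flanks of this length in the RefSeq table, 1.34% held at least 5 matches. The shares of flanks given here were not matched for base content, and 81.6% of the BNIP3 flank was G or C. ANKRD37 held 3 matches, 162, 161 and 143 bases before its start, of which the first pair again overlaps in a CACGTG, and 7.70% of flanks held at least 3. At MXI1, the start 2 flank held a GCGTG 127 bases and a CACGT 113 bases before the start, and the start 3 flank held a GCGTG 131 bases before it. Flanks were at hand for 6 measured members, not for NDRG1, VEGFA or BNIP3L, and 5 of the 6 had a match. By flank it was 6 of 9, with 3 flanks from MXI1 and 2 from HIF1A, where 43.1% of all flanks had at least 1 match. ADM and HIF1A were the other members with a match, and EGLN3 had none in this window. CACGTG, which is also the site of MYC and MAX proteins, was found in 6.31% of all flanks. A match of letters is a description of the sequence and not a measured binding site.

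**Figure D1:**
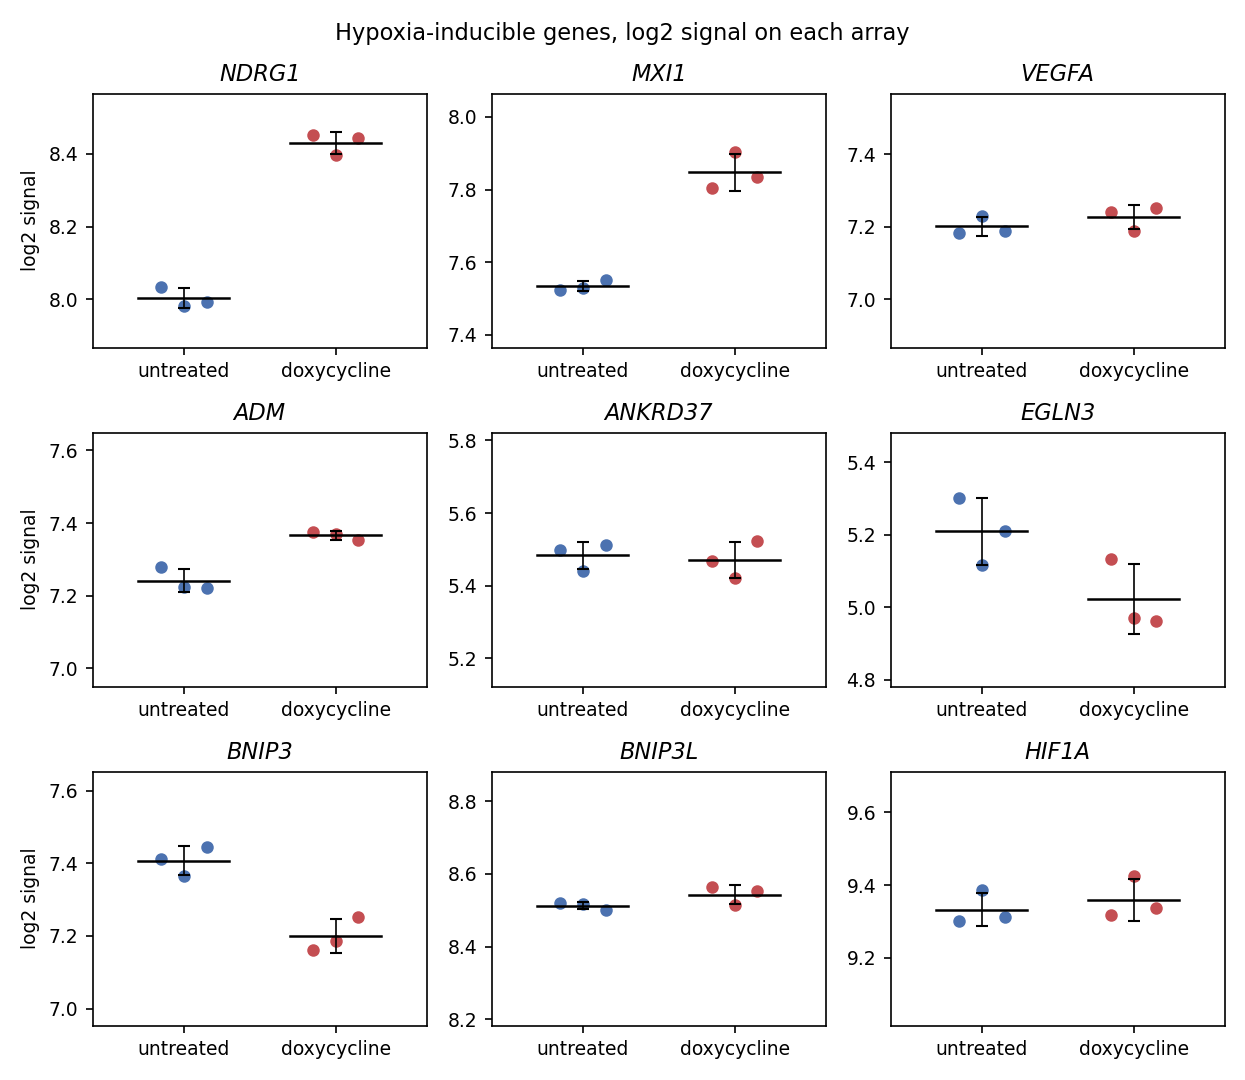
Log2 signal of the 9 measured hypoxia-inducible genes on each of 6 arrays, with a point for each array, a line at the group mean and bars of 1 SD (n = 3 per group). Every panel spans the same range of log2 units, so heights of steps can be compared between panels, and only NDRG1, MXI1, ADM and BNIP3 have groups that do not overlap.

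NDRG1, a cytoplasmic protein linked to differentiation and stress and among the most widely used transcript markers of hypoxia, showed the largest change of the set. The untreated arrays read 8.03, 7.98 and 7.99 and the treated arrays 8.45, 8.40 and 8.44. Every treated array was above every untreated array, and the step exceeded the SD of either group many times over. The means were 8.00 ± 0.027 and 8.43 ± 0.030 (SD, n = 3 per group), a log2 change of 0.43 (SE 0.037, 95% interval 0.34 to 0.52, limma adjusted p = 0.00495). Among the 14761 genes above the olfactory receptor level, this was rise number 77 by size. An exact two-sided permutation test of the array labels gave p = 0.1, and no smaller value is possible with 3 arrays per group. NDRG1 was the only member called under every one of the 15 alternative settings tried. None of the other 3 NDRG genes passed, with log2 changes between -0.092 and -0.057 (limma adjusted p of at least 0.395).

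MXI1, a MAX partner that opposes MYC at E-box sites, was also higher on every treated array. Its log2 signal was 7.52, 7.53 and 7.55 untreated and 7.80, 7.90 and 7.83 treated. The untreated arrays lay close together (SD 0.014) and the treated ones were more spread (SD 0.052), with no overlap. The log2 change was 0.31 (SE 0.040, 95% interval 0.22 to 0.41, limma adjusted p = 0.0106). Without untreated replicate 3 or without doxycycline replicate 3 the adjusted p was at most 0.0526, and the call was lost there and in the fit of every probe set (adjusted p = 0.061) and with the replicate number as a block (adjusted p = 0.0512).

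MXI1 belongs to a network of transcription factors that share MAX or its relative MLX. Of 12 measured genes of that network 3 rose, MXI1 itself being one of them, and none fell, beside 2.93% and 3.27% of all genes. MLXIPL, the carbohydrate response factor that pairs with MLX, rose by 0.33 (SE 0.035, limma adjusted p = 0.00766), from 7.16, 7.17 and 7.18 untreated to 7.52, 7.50 and 7.47 treated. MNT, a further repressor that pairs with MAX, rose by 0.20 (SE 0.037, limma adjusted p = 0.0282). MXD1, of the same repressor family as MXI1, did not pass (0.20, limma adjusted p = 0.0539), and neither did MYC (0.14, limma adjusted p = 0.178), both picked with their values in view. MAX (-0.045, limma adjusted p = 0.511), MLX (-0.14, limma adjusted p = 0.191) and MLXIP, a further partner of MLX (-0.10, limma adjusted p = 0.147), had every treated array below every untreated one, as 16.7% of all genes had, without passing. They too were picked with their values in view. The median change of the network was 0.018. The calls of MLXIPL and MNT differed in firmness, since MLXIPL kept its call in all 15 alternative settings and MNT lost its call whenever an array was left out.

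BNIP3 and BNIP3L are related proteins of the outer mitochondrial membrane that recruit the autophagy machinery to mitochondria, and both genes are known HIF targets. BNIP3 had log2 signals of 7.41, 7.37 and 7.44 untreated and 7.16, 7.19 and 7.25 treated. All treated arrays were below all untreated arrays. The means were 7.41 ± 0.039 and 7.20 ± 0.048 (SD, n = 3 per group), and the gene fell by 0.21 on the log2 scale (SE 0.043, 95% interval -0.31 to -0.11, limma adjusted p = 0.0377). In bulk RNA, fewer cells carrying a transcript and less of it per cell cannot be told apart. The call was lost whichever of the 6 arrays was removed (adjusted p 0.0727 to 0.133), while the change stayed between -0.23 and -0.19. It was also lost when each array was centred on its median (-0.20, adjusted p = 0.0524).

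BNIP3L was at 8.52, 8.52 and 8.50 untreated and 8.56, 8.51 and 8.55 treated. The groups overlap, and the change of 0.031 (95% interval -0.052 to 0.11) did not pass (limma adjusted p = 0.663). Whether the changes of BNIP3 and BNIP3L differ was not tested. Among 12 measured genes of mitochondrial and general autophagy, 1 rose and 2 fell, BNIP3 being one of the latter, beside 2.93% and 3.27% of all genes. GABARAPL1, which conjugates to autophagosome membranes, rose by 0.39 (SE 0.041, limma adjusted p = 0.00778), from 6.50, 6.48 and 6.48 to 6.81, 6.90 and 6.90. PHB2, an inner membrane prohibitin that can bind the autophagy machinery, fell by 0.18 (SE 0.039, limma adjusted p = 0.0447), a call lost whenever an array was left out.

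**Figure D2:**
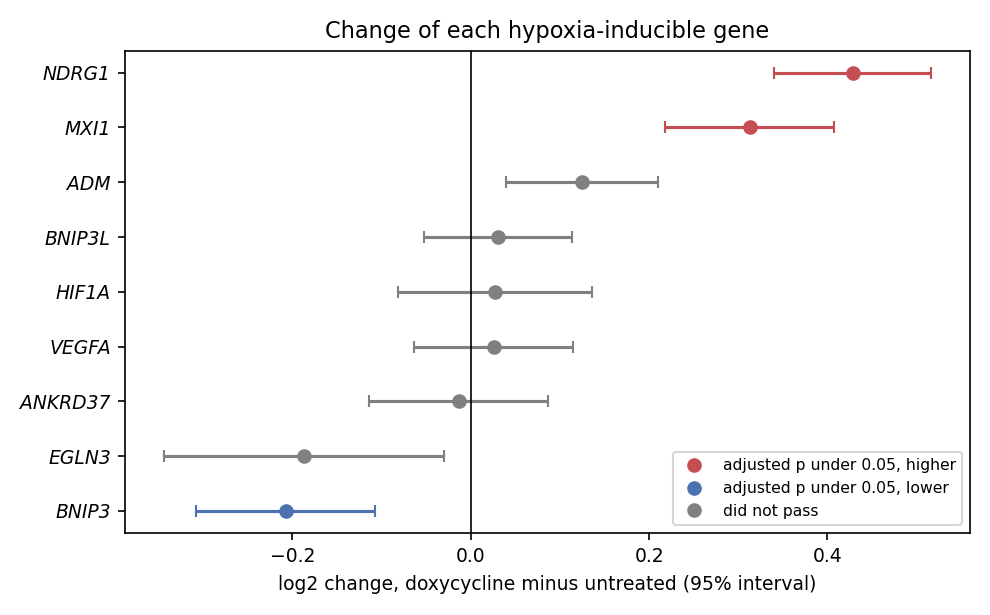
Log2 change of each measured hypoxia-inducible gene, doxycycline minus untreated, with 95% intervals from limma, n = 3 arrays per group. NDRG1 at 0.43 and MXI1 at 0.31 lie to the right, BNIP3 at -0.21 to the left, and the intervals of VEGFA, HIF1A, BNIP3L and ANKRD37 include 0.

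The secreted members moved little. ADM encodes adrenomedullin, a vasodilator peptide. Its log2 signal was 7.28, 7.22 and 7.22 untreated and 7.38, 7.37 and 7.35 treated, so the groups did not overlap. The change of 0.12 (SE 0.036, 95% interval 0.039 to 0.21) did not pass over all genes (limma adjusted p = 0.0942). VEGFA, the main growth factor for blood vessels, was at 7.18, 7.23 and 7.19 untreated and 7.24, 7.19 and 7.25 treated. These groups overlap, and the change was 0.026 (95% interval -0.063 to 0.11, limma adjusted p = 0.738), which spans 95.7% to 108% of the untreated signal. None of 10 VEGF ligands and receptors passed limma's test, and none had an unadjusted p under 0.05. NRP1, a VEGF co-receptor, and FLT1, a VEGF receptor that lay below the olfactory receptor level, had the smallest adjusted p, with changes of 0.07 (limma adjusted p = 0.381) and -0.062 (limma adjusted p = 0.394). None of 8 genes of the adrenomedullin system passed limma's test, and ADM alone had an unadjusted p under 0.05. After ADM, RAMP2, an accessory protein of the adrenomedullin receptor, had the smallest adjusted p (-0.12, limma adjusted p = 0.424).

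EGLN3, an oxygen-sensing prolyl hydroxylase whose own gene is a HIF target, was at 5.30, 5.12 and 5.21 untreated and 5.13, 4.97 and 4.96 treated. The highest treated array reached above the lowest untreated one. The change was -0.19 (SE 0.067, 95% interval -0.34 to -0.03), with limma adjusted p = 0.153, and it had the widest interval of the 9 members. The paralogs EGLN1 and EGLN2, which share its reaction, were also lower without passing, by values of -0.10 (limma adjusted p = 0.187) and -0.15 (limma adjusted p = 0.112). Both were picked with their values in view. HIF1AN, the asparagine hydroxylase that blocks the coactivator contact of HIF alpha subunits, had the second smallest adjusted p of its list, with a change of -0.19 and no overlap (SE 0.047, limma adjusted p = 0.0587).

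HIF1A itself read 9.30, 9.39 and 9.31 untreated and 9.32, 9.43 and 9.34 treated. Replicate 2 was the highest of its group on both sides, and the groups overlap. The change was 0.027 (SE 0.046, 95% interval -0.082 to 0.14, limma adjusted p = 0.783). EPAS1, the gene of the other main alpha subunit and picked with its value in view, changed by 0.044 (limma adjusted p = 0.676). ARNT, the partner of both, rose by 0.21 (SE 0.037, limma adjusted p = 0.0224), from 7.70, 7.73 and 7.73 to 7.97, 7.92 and 7.90. It was the single gene called among 17 measured HIF subunits, hydroxylases and members of the VHL pathway, beside 6.19% of all genes in either direction. The treated mean was the lower one for 12 of the 17, as it was for 58.2% of all genes, with a median change of -0.063 against -0.019 over all genes. At an unadjusted p under 0.05 there were 7 of 17 (41.2%), beside 22.6% of all genes. The call of ARNT was kept without doxycycline replicate 1 and lost when any other single array was left out (adjusted p up to 0.0897).

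ANKRD37, a small ankyrin repeat protein whose gene is strongly induced by hypoxia in many cell types, was at 5.50, 5.44 and 5.51 untreated and 5.47, 5.42 and 5.52 treated. The groups overlap fully. Its change of -0.014 (95% interval -0.11 to 0.087, limma adjusted p = 0.89) was the closest to 0 of the set. CA9, the acid-exporting carbonic anhydrase of hypoxic tumours, has no value here. Among 14 other carbonic anhydrases none passed limma's test, and 2 of 14 (14.3%) had an unadjusted p under 0.05, a smaller share than the 22.6% of all genes. These were CA5B (0.16, limma adjusted p = 0.104), a mitochondrial enzyme, and CA11 (0.16, limma adjusted p = 0.116), a relative without catalytic activity.

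Other HIF targets were listed by function. Of 22 measured HIF targets of glucose use, none rose, 2 fell and 19 had lower means, beside 2.93%, 3.27% and 58.2% of all genes, with a median change of -0.115, against -0.019 over all genes. For 14 of the 22 every treated array was below every untreated one, beside 16.7% of all genes. PDK3, a kinase that inhibits pyruvate dehydrogenase, fell by 0.31 (SE 0.041, limma adjusted p = 0.0115), from 7.02, 7.10 and 7.00 to 6.73, 6.76 and 6.72. TPI1, triosephosphate isomerase, fell by 0.34 (SE 0.046, limma adjusted p = 0.0115). The glucose transporter SLC2A1, at -0.16 (limma adjusted p = 0.0917), lactate dehydrogenase LDHA, at -0.16 (limma adjusted p = 0.0617), and phosphoglycerate kinase PGK1, at -0.15 (limma adjusted p = 0.0702), did not pass. These 3 were named as textbook HIF targets after their values were seen. TPI1 lost its call without untreated replicate 3 or doxycycline replicate 3, and PDK3 without doxycycline replicate 3, with adjusted p of up to 0.0565 and 0.0593.

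Among 33 other HIF targets 6 rose and 1 fell, beside 2.93% and 3.27% of all genes, with a median change of 0.00. BHLHE40, a transcriptional repressor that also acts in the circadian clock, rose by 0.41 (SE 0.039, limma adjusted p = 0.00615), from 7.46, 7.38 and 7.40 to 7.81, 7.81 and 7.86. WSB1, a substrate receptor of a ubiquitin ligase, rose by 0.47 (SE 0.066, limma adjusted p = 0.013), with treated arrays between 8.03 and 8.29 against 7.68 to 7.70 untreated. DDIT4, an inhibitor of mTORC1, rose by 0.35 (SE 0.068, limma adjusted p = 0.0329), and STC2, a secreted glycoprotein, by 0.28 (SE 0.051, limma adjusted p = 0.0275). BHLHE41, the paralog of BHLHE40, rose by 0.27 (limma adjusted p = 0.0475) and P4HA1, a collagen prolyl hydroxylase, by 0.21 (limma adjusted p = 0.0424). The transferrin receptor TFRC fell by 0.25 (limma adjusted p = 0.0412). BHLHE41, P4HA1 and TFRC were picked with their values in view, and BHLHE41 and TFRC lost their calls whichever array was left out, while P4HA1 kept its call in 1 of those 6 fits. BHLHE40 kept its call in all 15 alternative settings, DDIT4 and STC2 kept theirs only without doxycycline replicate 2 when an array was left out, and WSB1 only without doxycycline replicate 1 or 2.

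**Figure D3:**
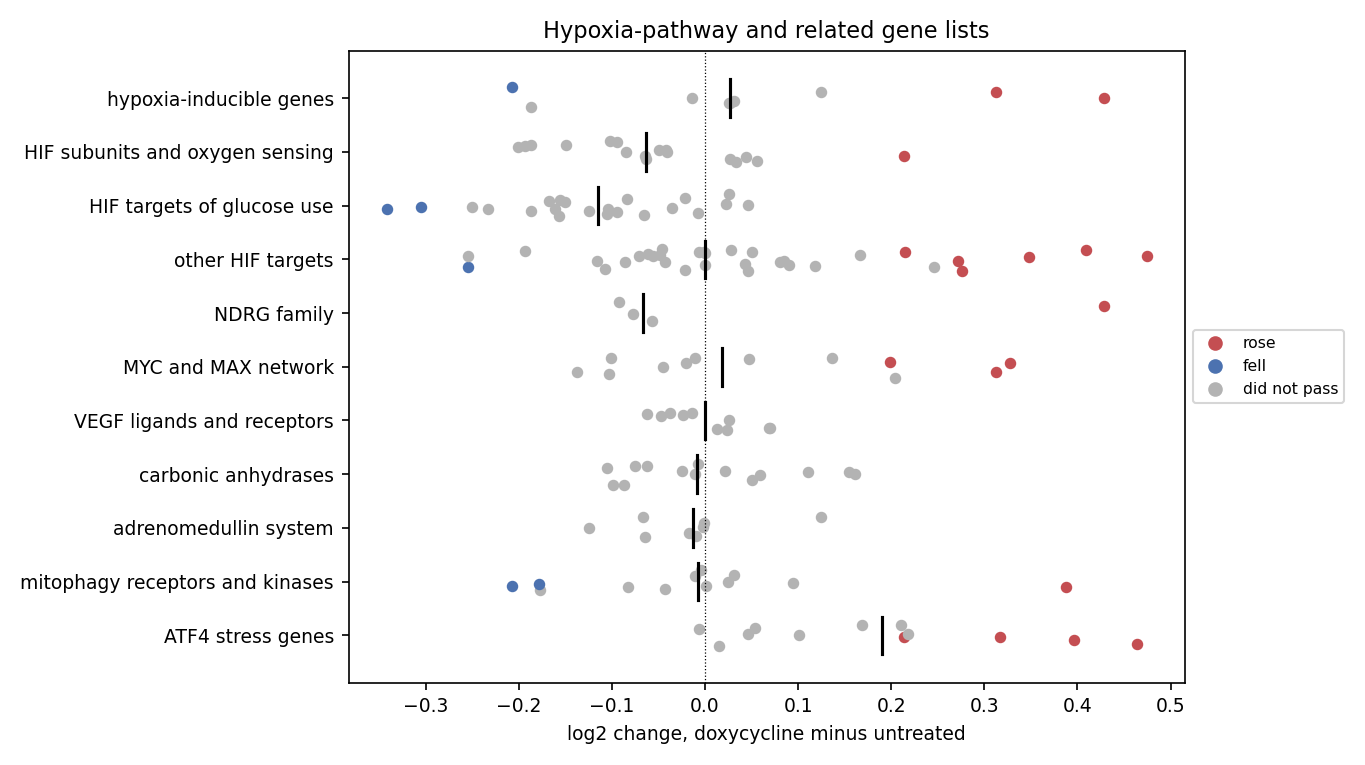
Log2 change, doxycycline minus untreated, of every measured gene in the hypoxia-inducible set and 10 related lists, 1 point per gene, with a black bar at each list's median. Colours mark genes that rose or fell at a limma adjusted p under 0.05, and points are shifted vertically to separate them. Genes of glucose use lie mostly left of 0 (median -0.115) and ATF4 stress genes mostly right of it (median 0.19).

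Genes of the ATF4 response to amino acid and protein folding stress, which shares NDRG1, VEGFA and DDIT4 with hypoxia, were set beside these. Of 12 measured, 4 rose, none fell and 11 had higher means, beside 2.93%, 3.27% and 41.8% of all genes, with a median change of 0.19. ASNS, asparagine synthetase, rose by 0.40 (SE 0.033, limma adjusted p = 0.00481), and DDIT3, a stress transcription factor, by 0.46 (SE 0.063, limma adjusted p = 0.0121). CHAC1, which degrades glutathione, rose by 0.32 (limma adjusted p = 0.0278), and PSAT1, an enzyme of serine synthesis, by 0.21 (limma adjusted p = 0.0178). The rest of the list did not pass, among it ATF4 itself (0.10, limma adjusted p = 0.232), picked with its value in view. With 1 array left out, ASNS kept its call in all 6 fits, DDIT3 in 4, PSAT1 in 2 and CHAC1 in 1, and with the replicate block CHAC1 (adjusted p = 0.0544) and PSAT1 (adjusted p = 0.0604) lost theirs. Whether NDRG1 or MXI1 is driven by this response in these cells was not tested.

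Genes with the most similar profile were sought among 11205 other genes at or above the median level, by the root mean square difference from the member over the 6 arrays after each gene was centred on its own mean. Closest to NDRG1 were LENG8 (0.021 log2 units, change 0.43), BHLHE40 (0.021, change 0.41) and CDK5RAP3 (0.028, change 0.44). Closest to MXI1 were the interferon regulatory factor gene IRF2 (0.015, change 0.30), the zinc finger gene ZNF83 (0.015, change 0.29) and the vesicle coat subunit gene COPB1 (0.019, change 0.32). Among those closest to BNIP3 were the histone gene H4C3 (0.020, change -0.24) and NSFL1C (0.022, change -0.18), which encodes a cofactor of the VCP ATPase. BHLHE40 is the only one of these 8 genes that is also in a list of HIF targets used here, and likeness over 6 arrays mostly reflects a similar step between the groups.

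**Figure D4:**
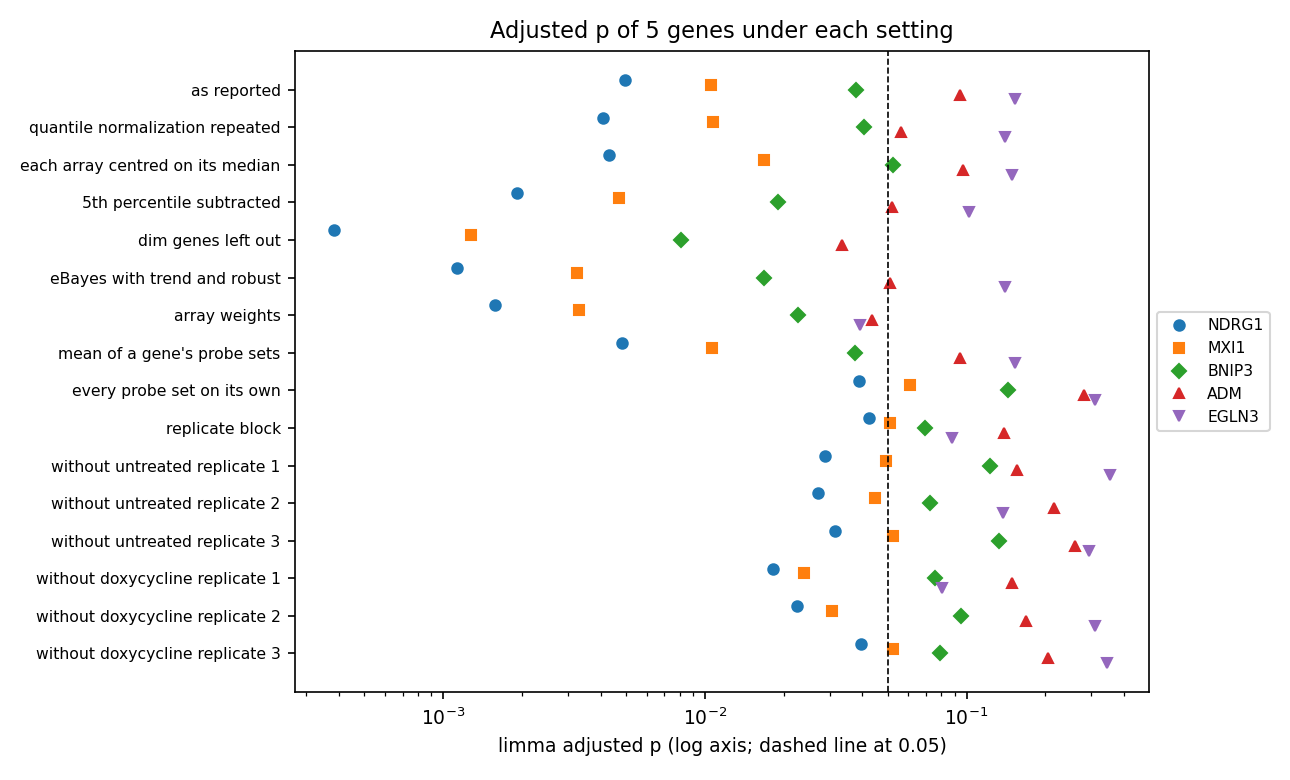
Limma adjusted p (log axis) of 5 hypoxia-inducible genes as reported and under 15 alternative settings, with a dashed line at 0.05. NDRG1 stays left of the line throughout, MXI1 crosses it in 4 settings, BNIP3 in 9, while ADM passes in 2 and EGLN3 in 1. EGLN3 has no point where dim genes were left out, and so has 14 alternative settings.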

How the data were processed

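The deposited table gives, for each probe set, 1 log2 value on each array. Per the submitters' processing notes the authors used RMA. RMA subtracts background, equalises the arrays' distributions and summarises probes, which compresses changes of dim genes. Its version and the genome build are not stated in those notes. The log2 scale was read from the range of 0.485 to 14.2. Array medians were 4.12 to 4.17. Of 70523 probe sets, 23781 carried 1 symbol in the platform annotation, 1543 several and 45199 none here. RefSeq's GRCh38.p14 table replaced 306 outdated symbols. The brightest probe set of each gene was kept, giving 22411 genes.

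Groups came from the sample titles. The labels call the cultures independent. Precision is limited by the 3 arrays per group. The test across genes was limma's (version 3.58.1, R 4.3.3, lmFit and eBayes, treatment as the only term, Benjamini-Hochberg over all genes), after the procedure was tested on simulated data. Single values had an exact two-sided permutation test. Python 3.11.15, pandas 2.3.3 and scipy 1.17.1 prepared the tables, and motifs were searched in RefSeq flanks.

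The members and lists were chosen with earlier results of these data known. Named genes were all members, SLBP, from each list the 2 of smallest adjusted p and at most 2 more with the largest called changes, and the 3 nearest profiles of each member called. MXD1, MYC, MAX, MLX, MLXIP, EGLN1, EGLN2, EPAS1, SLC2A1, LDHA, PGK1, BHLHE41, P4HA1, TFRC and ATF4 fall outside this rule and were picked with their values in view.

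CA9 and the other listed genes without a value were not analysed here, and 1 nearest profile of BNIP3 is not reported here.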

Additional observations from a re-analysis of the deposited data

How the results depend on the processing

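Every direction of the 3 called members, and of the 18 called genes named from the other lists, held in all 15 alternatives, except that DDIT3 had a value in 14 of them. Uncalled members close to 0 changed sign, ANKRD37 to 0.012 with array weights, 0.00031 without untreated replicate 3 and 0.0104 without doxycycline replicate 2 (range over the fits without 1 array -0.039 to 0.0104), and HIF1A to -0.0062 without doxycycline replicate 2 (range -0.0062 to 0.054). The number of members higher fell from 2 to 1 when every probe set was tested and with the replicate block, and was 1 to 2 over the fits without 1 array. The number lower fell from 1 to 0 with median centring, with every probe set tested and with the replicate block, was 0 in every fit without 1 array, and was 2 with array weights, where EGLN3 joined (adjusted p = 0.0392). ADM passed with array weights and without dim genes (adjusted p = 0.0334 in the latter). ANKRD37 and EGLN3 were among the dim genes and had values in 14 of the alternatives. Over all genes, 1388 calls (656 higher, 732 lower) became 2162 with the 5th percentile subtracted, 2569 without dim genes, 3225 with array weights, 344 of 70523 when every probe set was tested and 331 with the replicate block, and 132 to 1098 without 1 array, the lowest without doxycycline replicate 3. Same-numbered arrays did not deviate together (r of 0.030, -0.00060 and -0.016 over genes), so the numbers were not taken as pairs. Fits with fewer arrays have less power, and 14 of those 18 other calls were lost in at least 1 of them. No detection call accompanies the values, so signal near background limits EGLN3 and ANKRD37 most.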
